A study of Mus musculus with 6 samples.

Results

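Milk protein genes and the genes of the casein locus were examined in mouse mammary tumour grafts labelled AXL KO or WT, AXL being a cell-surface kinase that binds the ligand GAS6. The set held 10 genes of the 39179 in the count files, picked by symbol: Odam, the caseins Csn1s1, Csn2 and Csn3, and the genes Wap, Lalba, Ltf, Wfdc18, Lcn2 and Glycam1. They were picked with the AXL KO against WT values of these libraries known, so their values in that contrast are a description. No p-value is given for them, and where a member is said to be called or not called at the threshold used for all genes, this describes the values that chose it and supports nothing. All 10 were found in the files, and 8 had enough counts to enter the fit over all genes. Wap and Glycam1 did not.

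The study held 6 RNA-seq libraries, 3 of AXL KO grafts (AXL-/- cells) and 3 of WT grafts (AXL+/+ cells), grown as MMTV-Neu tumour grafts in mice of the FVB strain. In this model the MMTV promoter drives the Neu (ErbB2) oncogene in mammary epithelium. The host is not said to lack Axl, and host stroma, vessels and leukocytes can add RNA to every library. The question was how gene expression differs between the 2 kinds of graft. Age, time after grafting, the deleted part of Axl, and whether the AXL KO and WT cells came from the same tumour line are not stated. Separate animals within a group are not stated either, so the p-values cover the spread of these samples alone. A difference between lines and a difference between genotypes cannot be told apart.

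Milk proteins are made by luminal alveolar cells of the mammary gland. Prolactin, acting through JAK2 and the transcription factors STAT5A and STAT5B, switches their genes on in late pregnancy and lactation. Caseins form the micelles that carry calcium and phosphate, whey proteins stay in solution, and the casein genes sit in a cluster with relatives that encode saliva and enamel proteins, the secretory calcium-binding phosphoproteins. Odam, the odontogenic ameloblast-associated protein, belongs to that family and is known from enamel-forming cells and from the epithelium attached to teeth.

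Each library held between 26541009 and 32491807 gene counts. Axl itself averaged 60.1 ± 13.1 CPM (gene counts scaled to a common library size, TMM-adjusted; SD, n = 3) in AXL KO libraries and 60.4 ± 8.95 CPM (SD, n = 3) in WT libraries, so its level did not set the groups apart, and all directions below are between libraries as labelled. The luminal genes Krt8, Krt18 and Epcam lay between 613 ± 52.1 and 1388 ± 44.8 CPM (SD, n = 3) in AXL KO libraries and between 831 ± 36.2 and 1998 ± 48.7 CPM (SD, n = 3) in WT libraries, while Foxa1 had no count and Krt19 had 13 counts over the 6 libraries. Erbb2, the gene of the driver oncogene, averaged 9207 ± 1007 CPM in AXL KO libraries and 7193 ± 654.5 CPM in WT libraries (SD, n = 3 each). It was called higher in AXL KO libraries, at a log2 fold change of 0.36 ± 0.10 (SE; edgeR adjusted p = 0.026). Whether its reads came from the transgene was not tested. No pair of libraries was alike within sampling noise, and each counted as its own replicate.

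The promoters of Odam, Csn1s1 and Csn2 are shown because these genes lie within the same cluster and Odam had a much higher level than the other 2, as given next. Csn3, the cluster gene with the most counts, had no promoter entry, so its promoter is not shown or searched. Each line holds the 250 bases before the annotated start, 5′ to 3′, from RefSeq on GRCm38.p6, and capitals mark the STAT binding motif TTCNNNGAA, which reads the same on both strands. The positions are chr5:87884760-87885009 on the + strand for Odam, chr5:87665958-87666207 on the + strand for Csn1s1 and chr5:87699426-87699675 on the - strand for Csn2.
Odam: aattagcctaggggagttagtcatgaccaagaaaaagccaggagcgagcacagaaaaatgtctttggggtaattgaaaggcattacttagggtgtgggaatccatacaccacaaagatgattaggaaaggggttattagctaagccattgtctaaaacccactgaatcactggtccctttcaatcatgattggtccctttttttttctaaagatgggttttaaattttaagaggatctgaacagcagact
Csn1s1: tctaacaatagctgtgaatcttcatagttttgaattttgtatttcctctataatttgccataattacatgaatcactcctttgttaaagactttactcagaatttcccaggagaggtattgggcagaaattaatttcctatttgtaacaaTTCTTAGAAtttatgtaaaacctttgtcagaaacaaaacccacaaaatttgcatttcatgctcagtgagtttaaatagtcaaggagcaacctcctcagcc
Csn2: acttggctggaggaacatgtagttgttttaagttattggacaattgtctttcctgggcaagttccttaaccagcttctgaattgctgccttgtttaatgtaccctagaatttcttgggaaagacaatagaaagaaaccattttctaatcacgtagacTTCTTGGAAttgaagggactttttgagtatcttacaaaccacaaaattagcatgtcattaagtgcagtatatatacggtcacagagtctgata
The motif stood 100 bases before the RefSeq start of Csn1s1 and 93 bases before that of Csn2, and these letters were not in the Odam window. The GENCODE gene of Csn2 (87692624 to 87699630) starts farther upstream than the RefSeq start. The Csn2 window, with its motif, thus lies in part inside that gene. Of the 9 members with a promoter in the table, 3 held the motif, the third being Glycam1, against 7.02% of 32851 promoter windows of the same length. The core of the interferon-stimulated response element (GAAA, 2 bases of any kind, GAAA), searched on both strands, was in none of the 9 windows and in 2.98% of all windows. A match describes letters and is not evidence of binding.

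Milk protein genes were not expressed as a block in these grafts. Csn3, which encodes kappa-casein, the protein that stabilises the casein micelle, was the gene with the most counts in each of the 6 libraries and took 3.51% to 4.06% of gene counts in AXL KO libraries and 3.12% to 3.47% in WT libraries. Csn1s1 and Csn2, major caseins encoded in the same cluster, were close to silent. Csn2 had 12, 5 and 13 counts in AXL KO libraries 1, 2 and 3, against 4, 11 and 3 counts in WT libraries 1, 2 and 3. Csn1s1 had 26, 13 and 13 counts in the AXL KO libraries and 14, 20 and 10 counts in the WT libraries. Summed over libraries, Csn3 had 3393588 counts to 30 of Csn2 in AXL KO, and 2829824 counts to 18 of Csn2 in WT.

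Levels per length were compared as RPKM, CPM divided by the annotated exon length in kilobases, all isoforms joined, which understates genes with long retained-intron isoforms such as Csn2. In AXL KO libraries the order was Csn3 (9011 ± 829 RPKM, SD, n = 3), Lcn2 (1389 ± 50.8), Wfdc18 (1170 ± 235), Odam (299 ± 110), Lalba (281 ± 86.2), Ltf (3.34 ± 1.03), Csn1s1, Csn2, Wap and Glycam1, the last 4 at mean levels of 0.0934 RPKM or lower. Lcn2 and Wfdc18 overlapped between AXL KO libraries, as did Odam and Lalba, Csn2 and Wap, and Wap and Glycam1. In WT libraries the order was Csn3 (7943 ± 386 RPKM, SD, n = 3), Lcn2 (2213 ± 57.9), Wfdc18 (446 ± 25.7), Lalba (188 ± 61.4), Odam (7.46 ± 1.75), Ltf (0.569 ± 0.0900), and then Csn1s1, Wap, Csn2 and Glycam1 at mean levels of 0.0816 RPKM or lower. The first 6 in the WT order did not overlap with their neighbours, and the last 4 did. Odam stood level with Lalba in AXL KO libraries, whereas in WT libraries it stood below Lalba in every library.

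**Figure D1:**
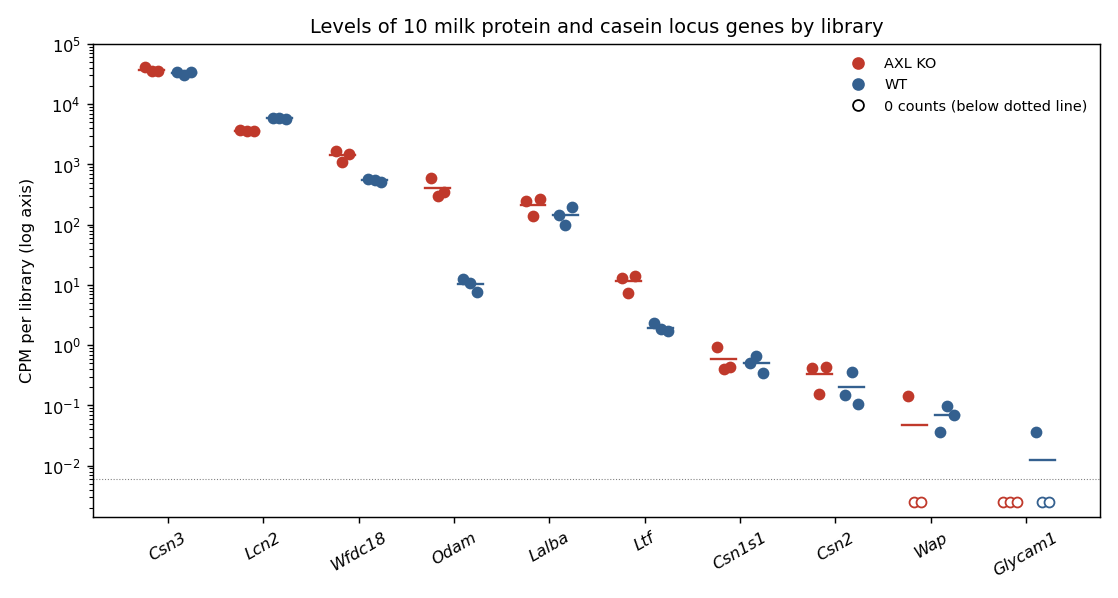
Level of each of the 10 genes in each library, in CPM on a log axis, with AXL KO libraries in red at the left of each gene and WT libraries in blue at the right; horizontal bars are group means, and open points below the dotted line mark 0 counts. Csn3 lies at 31128 CPM or more in all 6 libraries, Csn1s1 and Csn2 lie below 1 CPM, and the groups of Odam stand farthest apart.

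Odam showed the widest separation between the groups. Its level was 585, 302 and 349 CPM in AXL KO libraries 1, 2 and 3, against 12.4, 10.8 and 7.64 CPM in WT libraries 1, 2 and 3. The groups did not overlap, the lowest AXL KO library being AXL KO 2 and the highest WT library WT 1. The log2 fold change was 5.33 ± 0.29 (SE), or 40.2-fold higher, and it lay between 4.99 and 5.51 with any single library left out. Among 14850 tested genes it stood at place 13 from the largest increase. In the authors' deposited table, turned round to AXL KO over WT, the log2 fold change of Odam was 5 with a standard error of 0.341, and those of Ltf, Wfdc18 and Lcn2 were 2.47, 1.37 and -0.67. Within AXL KO libraries the highest level was 1.94 times the lowest, and within WT libraries 1.62 times.

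Of the 8 tested members 3 were called higher in AXL KO libraries at an edgeR adjusted p under 0.05, where 19.1% of all tested genes were, and 1 was called lower, where 18.3% were. These counts describe genes picked on this contrast, and nothing is read from them. Libraries did not overlap between groups for 5 of the 8, with AXL KO above WT for 4 (26.9% of all tested genes) and below it for 1 (25.2%).

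Among the caseins, Csn3 was 41386, 35497 and 35360 CPM in AXL KO libraries and 33908, 31128 and 33905 CPM in WT libraries. All 3 AXL KO libraries lay above the WT libraries, but the log2 fold change was small, 0.18 ± 0.09 (SE), and Csn3 was not called. The log2 fold changes of Csn2 and Csn1s1 rested on few counts and were 0.66 ± 0.56 and 0.17 ± 0.41 (SE), with overlapping groups. That of Csn1s1 turned to -0.30 without AXL KO 1 and to -0.04 without WT 3.

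Wfdc18 encodes a small secreted protein with a WAP domain and is known from the mouse mammary gland (chromosome 11, GRCm38 83709015 to 83711348, + strand). Its level was 1661, 1108 and 1512 CPM in AXL KO libraries, against 569, 555 and 509 CPM in WT libraries. The groups did not overlap and the log2 fold change was 1.39 ± 0.14 (SE), 2.62-fold higher. Lalba encodes alpha-lactalbumin, which turns a galactosyltransferase into lactose synthase (chromosome 15, 98480400 to 98482721, - strand). It had 246, 140 and 263 CPM in AXL KO libraries and 143, 98.8 and 193 CPM in WT libraries. AXL KO 2 lay below WT 1 and WT 3, so the groups overlapped, and Lalba, with a log2 fold change of 0.58 ± 0.27 (SE), was not called. Without AXL KO 2 the log2 fold change was 0.81 ± 0.22 (SE), and Lalba was called higher.

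Wap, the whey acidic protein gene and a main whey gene of mouse milk (chromosome 11, 6635482 to 6638637, - strand), had 4, 0 and 0 counts in AXL KO libraries and 1, 3 and 2 counts in WT libraries. Glycam1 encodes a mucin-like protein of milk and of high endothelial venules (chromosome 15, 103562759 to 103565081, - strand), and its only count over all libraries was 1 in WT 1. The 0 counts of Glycam1 in the AXL KO libraries allow a level of up to 0.0326 CPM over that group (3 counts, counting error only). No fold change is given for either gene at this depth.

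Ltf and Lcn2 encode proteins that bind iron or its bacterial carriers, and both are made by mammary epithelium and stored in neutrophil granules. Ltf was called higher and Lcn2 lower. Ltf lies on chromosome 9 (GRCm38 111019271 to 111042767, + strand) and Lcn2 on chromosome 2 (32384633 to 32388252, - strand). Ltf, the lactoferrin gene, had 368, 242 and 428 counts in AXL KO libraries, against 63, 55 and 50 counts in WT libraries. The means were 11.5 ± 3.54 CPM in AXL KO libraries and 1.96 ± 0.311 CPM in WT libraries (SD, n = 3 each). The groups did not overlap, and the log2 fold change was 2.55 ± 0.26 (SE), 5.86-fold higher. Lcn2, the siderophore-binding lipocalin, was 3793, 3536 and 3604 CPM in AXL KO libraries and 5806, 5954 and 5650 CPM in WT libraries. All 3 AXL KO libraries lay below all WT libraries, with a log2 fold change of -0.67 ± 0.07 (SE), and Lcn2 had the smallest spread of the 8 tested members, the highest library being 1.07 times the lowest in AXL KO and 1.05 times in WT.

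Neutrophil markers ranged from 0 to a few CPM in both groups. The summed level of 12 markers lay between 5.49 and 12.4 CPM in AXL KO libraries and between 6.41 and 13.8 CPM in WT libraries. The granule genes Camp, Elane and Mpo had 0 counts in all 6 libraries, Ngp had 3 counts and Ly6g 1. The highest were Csf3r, a cytokine receptor gene, at 4.68 ± 1.14 CPM in AXL KO libraries and 3.73 ± 1.17 CPM in WT libraries, and the protease gene Mmp9, at 1.54 ± 1.24 CPM in AXL KO libraries and 2.69 ± 1.35 CPM in WT libraries (SD, n = 3 each). Both overlapped between groups and neither was called. Their WT means lay above that of Ltf, and their AXL KO means lay below that of Ltf, 11.5 CPM. Lcn2 lay above the summed markers in every library. The part of neutrophils in the values of Ltf and Lcn2 was not tested. Of 6 tested neutrophil markers 1 fell and none rose, where 18.3% of all tested genes were lower and 19.1% higher. The count of 1 lower is near that share. At an unadjusted p under 0.05, 0 were higher, and 0 were higher by DESeq2 or limma-voom. The marker that fell was the chemokine receptor gene Cxcr2 (log2 fold change -1.19 ± 0.41 (SE), edgeR adjusted p = 0.0475), and DESeq2 called 0 lower. Neutrophil markers called lower numbered 3 without AXL KO 2, 2 without WT 2 and 0 without any other single library. S100a8 and S100a9, calcium-binding proteins of myeloid cells, lay at -0.89 ± 0.63 and -1.55 ± 0.64 (SE) and were not called. In bulk RNA, fewer cells of a type and less RNA per cell cannot be told apart.

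AXL KO 2 had the lowest level of the 3 AXL KO libraries for 7 of the 8 tested members, the exception being Csn3, and the highest for none. AXL KO 1 was the highest for 5 of them. Csn1s1 had 13 counts in both AXL KO 2 and AXL KO 3, so its place rests on library scaling. Over all counted genes, too, AXL KO 2 was the AXL KO library nearest to WT. Its chi-square per gene, the difference relative to sampling noise, was 93.5 to 102.5 against the WT libraries. That of AXL KO 1 and AXL KO 3 was 125.6 to 151.7. The share of all genes lowest in AXL KO 2 was not counted.

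**Figure D2:**
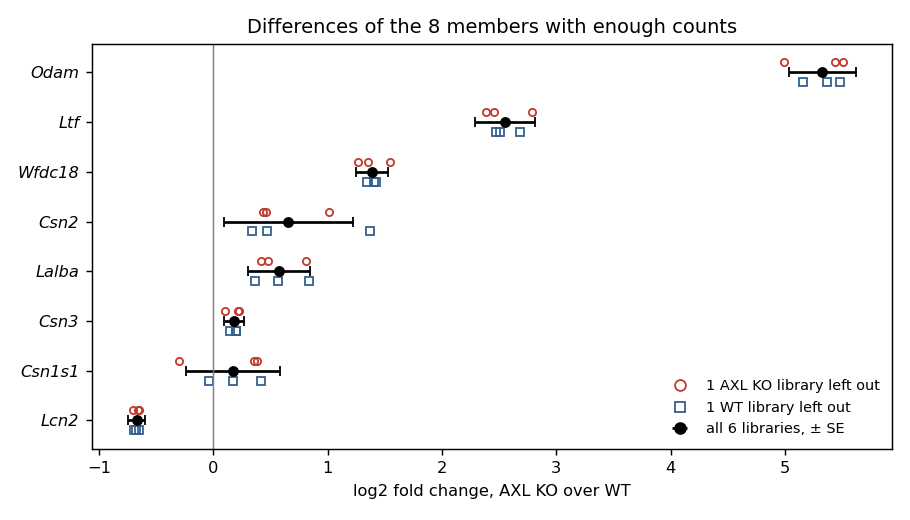
Log2 fold change of AXL KO over WT for the 8 members in the fit, with all 6 libraries (black, ± SE) and with 1 AXL KO library (red circles) or 1 WT library (blue squares) left out. Odam, Ltf, Wfdc18 and Lcn2 keep their sign in all 6 fits, and Csn1s1 crosses 0.

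Odam lies between Csn1s2b and Csn3 on chromosome 5 (GRCm38 87885029 to 87894174, + strand), with its start 40.6 kb before that of Csn3 (87925579 to 87932665, + strand). Csn1s1 (87666208 to 87682578, + strand) and Csn2 (87692624 to 87699630, - strand) stand at the other end of the cluster, and the span from Csn1s1 to Csn3 measures 266 kb. An annotated antisense RNA that was not among the counted genes overlaps Csn3, and no annotated gene overlaps the other 9 members. The window of the span and 1 Mb to each side held 45 further counted genes, of which 27 had any count and 13 were tested. Among these 13, 4 rose and 3 fell (edgeR adjusted p under 0.05), against 19.1% and 18.3% of all tested genes. Their median log2 fold change was 0.05, and that of the 911 tested genes of chromosome 5 was 0.01, with 168 higher and 160 lower.

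Of the genes near Odam, Csn1s2b and BC051076 rose, while Csn1s2a and Csn3 were not called. Csn1s2b, a casein gene that starts 76.9 kb before Odam, had 15, 19 and 15 counts in AXL KO libraries and 2, 4 and 3 counts in WT libraries. It rose, with no overlap, at a log2 fold change of 2.32 ± 0.37 (SE; edgeR adjusted p = 0.00179). Csn1s2a, its neighbour, had 130, 36 and 43 counts in AXL KO libraries and 10, 45 and 16 counts in WT libraries. WT 2 lay above AXL KO 2 and AXL KO 3, so the groups overlapped, and the log2 fold change of 1.52 ± 0.63 (SE) missed the threshold (edgeR adjusted p = 0.0886; DESeq2 adjusted p = 0.0315). Without AXL KO 2 it was 1.87 (edgeR adjusted p = 0.0359) and without WT 2 it was 2.33 (edgeR adjusted p = 0.0384), with a range of 0.63 to 2.33 over the 6 fits that left out 1 library. BC051076, which starts 78.5 kb after Odam, had 15, 20 and 28 counts in AXL KO libraries and 4, 5 and 6 counts in WT libraries, and rose at 1.96 ± 0.37 (SE; edgeR adjusted p = 0.00378).

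Farther along, Prol1, a proline-rich protein gene known from saliva and tear glands that starts 432 kb after Odam, had 2096, 783 and 1794 counts in AXL KO libraries and 50, 90 and 99 counts in WT libraries. It rose 18.9-fold, a log2 fold change of 4.24 ± 0.42 (SE; edgeR adjusted p = 0.000158), and AXL KO 2 was again the lowest AXL KO library. Igj, the joining chain of secreted antibody, starts 635 kb after Odam and had 37, 41 and 64 counts in AXL KO libraries and 10, 6 and 3 counts in WT libraries, with a log2 fold change of 2.79 ± 0.41 (SE; edgeR adjusted p = 0.00113). The genes that fell in the window were Rufy3, Mob1b and Dck, which start 680 to 880 kb after Odam. They had log2 fold changes of -0.40, -0.29 and -0.42, and none of the 3 was called without AXL KO 1 or without AXL KO 3, and 1 without WT 2 or without WT 3. The enamel genes Ambn and Enam, which lie between Prol1 and Igj, had 0 counts in all libraries, and Amtn had 2 counts in all. The saliva protein genes Smr2 and Smr3a, which lie between BC051076 and Prol1, had too few counts for the fit. Smr2 had 12, 4 and 8 counts in AXL KO libraries and 3, 0 and 1 counts in WT libraries. Smr3a had 8, 18 and 10 counts in AXL KO libraries and 4, 6 and 2 counts in WT libraries. In CPM all AXL KO libraries lay above all WT libraries for both, and without the filter on low counts both were called higher, at 2.41 ± 0.81 and 1.48 ± 0.51 (SE; edgeR adjusted p = 0.0395 and 0.0468). Of the other saliva and tear gland markers 3 were tested and none was called; 1 was lower without AXL KO 1.

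**Figure D3:**
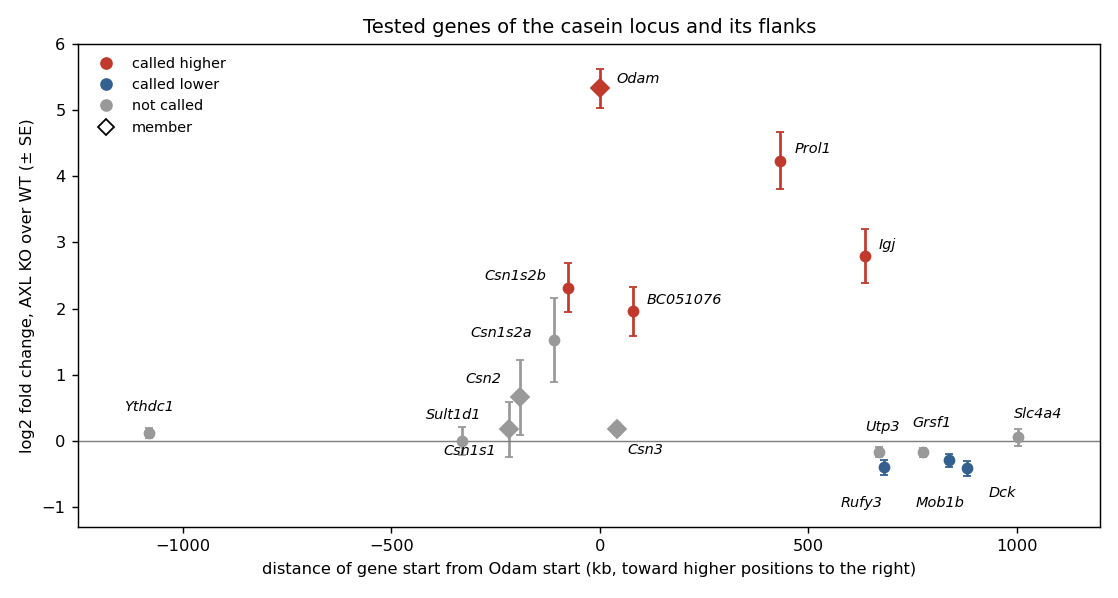
Log2 fold change of AXL KO over WT (± SE) of tested genes in the casein locus and 1 Mb to each side, against the distance of each gene's start from the start of Odam in kb; diamonds are members, red is called higher, blue called lower and grey not called. Odam at 5.33 and Prol1 at 4.24 stand highest, while Csn3, at 40.6 kb, stands at 0.18.

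Genes whose pattern over the 6 libraries was most like that of Odam were H2-Q7, Serpini1, H2-Q6, Gm7592 and Iigp1. Likeness was the root mean square difference of log2 CPM after subtraction of each gene's WT mean, over 11387 genes whose mean log2 CPM was 2 or more, and it was 0.45 for H2-Q7 and 0.61 for Iigp1. It rests mainly on the size of the AXL KO over WT difference, on which Odam was picked. The log2 fold changes of the 5 lay between 4.61 and 5.18. Odam and Serpini1 were highest in AXL KO 1, whereas H2-Q7, H2-Q6, Gm7592 and Iigp1 were highest in AXL KO 3. Of the AXL KO libraries, AXL KO 2 was the lowest for Odam and for each of the 5. In WT libraries Odam was highest in WT 1, and H2-Q7, H2-Q6, Gm7592 and Iigp1 in WT 2. The order of libraries within a group was thus shared in part, and its cause was not tested. H2-Q7, an MHC class I gene, averaged 326 ± 68.3 CPM (SD, n = 3) in AXL KO libraries and 8.93 ± 4.48 CPM (SD, n = 3) in WT libraries. Serpini1, a serine protease inhibitor, averaged 31.6 ± 2.19 CPM (SD, n = 3) in AXL KO libraries and 1.04 ± 0.241 CPM (SD, n = 3) in WT libraries. None of the 5 lies on chromosome 5, and H2-Q6, H2-Q7 and Gm7592 have close relatives that can share reads.

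Regulators of milk protein genes were higher in part in AXL KO libraries. Of 19 tested genes of the prolactin and lactogenic list 8 rose and 0 fell at an edgeR adjusted p under 0.05, where 19.1% of all tested genes were higher and 18.3% lower. The list's median log2 fold change was 0.21, against 0.0003 over all tested genes. At an unadjusted p under 0.05, 1 was lower, and DESeq2 and limma-voom called 0 lower. Erbb4, a neuregulin receptor that acts with STAT5 in the lactating gland, rose to 70.0 ± 6.12 CPM in AXL KO libraries, against 20.2 ± 5.17 CPM in WT libraries (SD, n = 3 each; log2 fold change 1.79 ± 0.17 (SE), edgeR adjusted p = 0.000126). The oestrogen receptor gene Esr1 rose 2.01-fold (edgeR adjusted p = 0.000318), and the transcription factor gene Nfib rose 1.45-fold (edgeR adjusted p = 0.000519). The 8 also held Socs1, a suppressor of cytokine signalling, and Stat3, both named here after their values were seen. The log2 fold change of Socs1 was close to that of Erbb4. The 8 are thus not all activators of milk protein genes, and their number does not give a direction for the pathway.

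Both STAT5 genes rose. Stat5b averaged 137 ± 19.5 CPM in AXL KO libraries and 74.1 ± 5.93 CPM in WT libraries (SD, n = 3 each), a log2 fold change of 0.88 ± 0.11 (SE; edgeR adjusted p = 0.000603). Stat5a, named here after its values were seen, averaged 96.1 ± 26.4 CPM in AXL KO libraries and 38.5 ± 3.38 CPM in WT libraries (SD, n = 3 each), at 1.32 ± 0.19 (SE; edgeR adjusted p = 0.000967). Elf5, a luminal alveolar transcription factor gene, had 244 ± 13.1 CPM in AXL KO libraries and 240 ± 16.5 CPM in WT libraries (SD, n = 3 each). The prolactin receptor gene Prlr lay at 0.21 ± 0.09, Jak2 at 0.10 ± 0.08 and the STAT5 target gene Socs2 at -0.02 ± 0.07 (SE), and none of these 4 was called, likewise named after their values were seen. The transcript of Cish, another STAT5 target, rose by 0.35 ± 0.09 (SE; edgeR adjusted p = 0.0169), and this call was lost without AXL KO 1 (adjusted p = 0.0746).

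Among 17 other milk protein genes in the fit, 3 were higher and 8 lower in AXL KO libraries (median log2 fold change -0.50), beside 19.1% and 18.3% of all tested genes. Pigr, which carries antibody across the epithelium into milk, rose to 553 ± 82.9 CPM in AXL KO libraries, against 94.6 ± 18.2 CPM in WT libraries (SD, n = 3 each; log2 fold change 2.55 ± 0.16 (SE), edgeR adjusted p = 1.34e-05). Muc15, a mucin of the milk fat globule, rose 2.74-fold (edgeR adjusted p = 9.93e-05), and the third that rose was Csn1s2b, given above. Mfge8, a milk fat globule protein that also bridges phagocytes to dying cells, fell to 31.9 ± 5.73 CPM in AXL KO libraries, against 87.7 ± 3.12 CPM in WT libraries (SD, n = 3 each; log2 fold change -1.46 ± 0.12 (SE), edgeR adjusted p = 5.96e-05). Clu, the secreted chaperone clusterin, fell 3.32-fold (edgeR adjusted p = 8.69e-05).

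Of 23 tested genes of milk fat, lactose and ion secretion 8 were higher and 4 lower, where 19.1% of all tested genes were higher and 18.3% lower. Their median log2 fold change was -0.02, and the count of 4 lower is near the share of all tested genes. Thrsp, a regulator of fatty acid synthesis, rose 3.33-fold, and the fatty acid synthesis enzymes Acaca and Acly rose 2.28- and 1.6-fold (edgeR adjusted p = 0.000107, 0.000112 and 0.000695). Slc5a5, the iodide transporter, fell to 0.198 ± 0.029 CPM in AXL KO libraries, against 1.36 ± 0.317 CPM in WT libraries (SD, n = 3 each; edgeR adjusted p = 0.000367). The genes called lower numbered 1 or 2 in each fit that left out 1 library. Xdh, which is needed for release of the milk fat globule, had 327 ± 43.3 CPM in AXL KO libraries and 335 ± 55.6 CPM in WT libraries (SD, n = 3 each) and was not called.

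Genes related to the members by family were counted apart from them. A list of secretory calcium-binding phosphoproteins outside the members also held the matrix protein genes Sparc and Sparcl1, which are not such phosphoproteins. Of its 6 tested genes 1 rose, which was Csn1s2b, and 3 fell (median log2 fold change -0.90), beside 19.1% and 18.3% of all tested genes. The matrix protein genes Sparcl1 and Sparc fell 2.07- and 1.69-fold (edgeR adjusted p = 0.00307 and 0.0112), and Dmp1, a mineralised tissue protein gene, fell at -1.58 ± 0.39 (SE; edgeR adjusted p = 0.0132). Spp1, osteopontin, a secretory calcium-binding phosphoprotein and also a milk protein, was not called at -1.57 ± 0.74 (SE). It had 76.4, 604 and 61.9 CPM in AXL KO libraries, AXL KO 2 standing apart, and 727, 838 and 634 CPM in WT libraries. Of 4 tested WAP-domain genes outside the members 2 fell and 0 rose, where 18.3% of all tested genes were lower and 19.1% higher. At an unadjusted p under 0.05, 0 were higher, and 0 were higher by DESeq2 or limma-voom. No trend of a family is read from so few genes. Without WT 1, 1 was higher, and among genes at 2 or more mean log2 CPM 0 were lower. Those that fell were Wfdc2 (-3.45 ± 0.50, SE, edgeR adjusted p = 0.00108) and Wfdc3 (-1.78 ± 0.32, SE, edgeR adjusted p = 0.0032), while Slpi and Wfdc17 lay at -0.17 ± 0.24 and -0.22 ± 0.36 (SE). Both that fell had few counts. Wfdc2 had 6, 30 and 3 counts in AXL KO libraries, AXL KO 2 standing apart, and 135, 133 and 133 in WT libraries. Wfdc3 had 17, 12 and 11 counts in AXL KO libraries and 56, 38 and 36 in WT libraries. Another entry under the symbol Wfdc3 had 0 counts in all libraries.

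**Figure D4:**
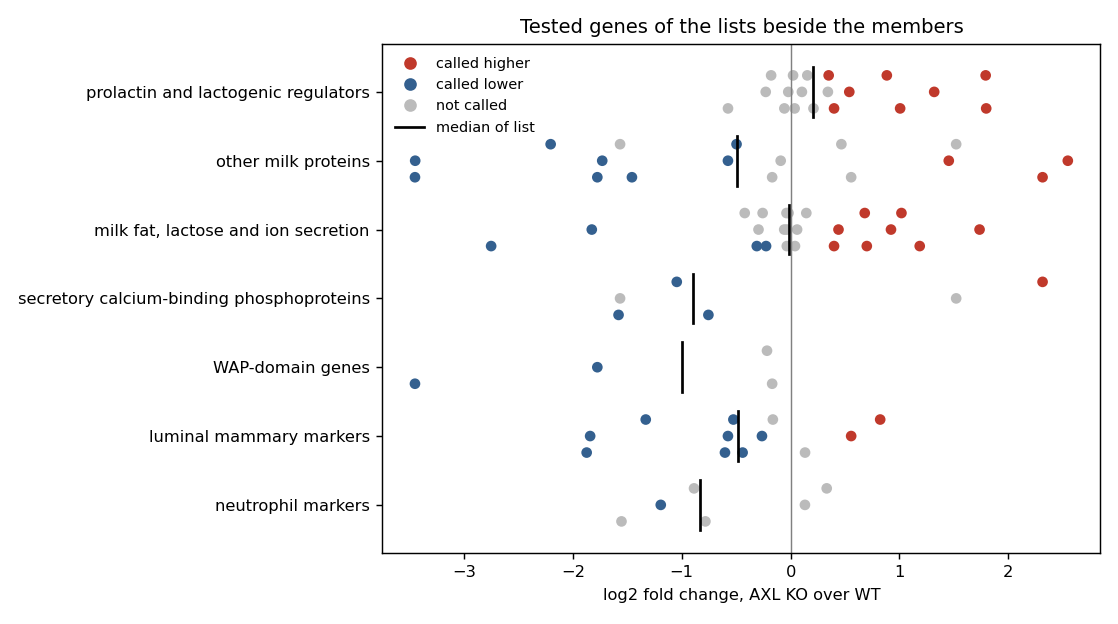
Log2 fold change of AXL KO over WT for tested genes of 7 lists beside the members; each point is a gene, red is called higher, blue called lower, grey not called, and the black bar is the median of the list. The prolactin and lactogenic regulators have a median of 0.21 with 8 genes called higher, and the other 6 medians lie below 0.

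More of the tested luminal markers fell than rose in AXL KO libraries. The summed level of 14 luminal markers lay between 5070 and 5358 CPM in AXL KO libraries and between 5834 and 6180 CPM in WT libraries. Of 12 tested 2 rose and 8 fell, where 19.1% of all tested genes were higher and 18.3% lower. Those that fell were Krt7, Cldn4, Epcam, Krt18, Krt8, Aldh1a3, Cd14 and Cldn3. Epcam, Krt18 and Krt8 had log2 fold changes of -0.53 ± 0.07, -0.60 ± 0.11 and -0.44 ± 0.08 (SE). The number that fell was 5 without AXL KO 3 or without WT 1. Esrp1, an epithelial splicing factor gene, rose at 0.56 ± 0.08 (SE), and the adhesion genes Cdh1 and Cldn7 were not called at 0.13 ± 0.07 and -0.16 ± 0.09 (SE). The keratin gene Krt7 and the tight junction gene Cldn4 had log2 fold changes of -1.87 ± 0.09 and -1.84 ± 0.16 (SE), and the receptor gene Kit rose at 0.82 ± 0.08 (SE; edgeR adjusted p = 4.91e-06, 8.05e-05 and 0.00011). Basal markers were low, at a summed 44.2 to 98.1 CPM in AXL KO libraries and 125 to 153 CPM in WT libraries, with Krt14 at 1 count and Krt5 at 6 counts over the 6 libraries. Of 6 tested basal markers 3 fell, beside 18.3% of all tested genes. These were Mylk, Acta2 and Cnn1, which smooth muscle also expresses.

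Markers of other host tissues were also measured. Adipocyte markers summed to 98.2 to 287 CPM in AXL KO libraries and 207 to 347 CPM in WT libraries. Of 10 tested 0 were called by edgeR, DESeq2 or limma-voom, with 0 at an unadjusted edgeR p under 0.05. Of all tested genes 37.4% were called by edgeR. Of the high endothelial venule markers, Chst4 and Ccl21a had 0 counts, Madcam1 had 3 and Fut7 22, and the summed level of 96.2 to 113 CPM in AXL KO libraries and 77.7 to 89.5 CPM in WT libraries was nearly all Lifr, which other cells also express. Keratinocyte markers summed to 2.69 to 2.76 CPM in AXL KO libraries and 1.196 to 1.804 CPM in WT libraries, mostly from Krt10, with Ivl, Flg and Krt2 at 0 counts. Saliva and tear gland markers summed to 28.2 to 78.0 CPM in AXL KO libraries and 5.15 to 6.91 CPM in WT libraries, mostly from Prol1. The part of luminal content, adipocytes or gland tissue in the values of the 10 genes was not tested.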

How the data were processed

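RNA-seq of 3 AXL KO and 3 WT tumour grafts was used, and libraries were grouped by their titles. The submitters' processing notes name CASAVA 1.8, TopHat2 2.0.10, HTSeq 0.5.3, DESeq2 1.4.5 and GRCm38. Settings and strandedness are not stated, so reads of overlapping or antisense genes cannot be told apart. The deposited files hold a raw count per gene for 39179 genes, plus 5 rows that name no gene and entered neither library sizes nor tests. Of all counted lines, non-unique alignments were 25.7% to 29%, those in no gene 4.41% to 6.88% and ambiguous ones 0.717% to 1.09%.

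The authors also deposited a comparison table. Its signal per library, per the file headers one column for each, equals the counts divided by 1 size factor. Its log2 fold changes, standard errors, test score and p-values, as deposited, run as WT over AXL KO and were turned round where quoted. It was not retested.

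Genes passing the edgeR filter filterByExpr (minimum count 10, minimum total 15) numbered 14850 of 21716 with any count. In R 4.3.3, edgeR 4.0.16 (quasi-likelihood, TMM factors of 0.981 to 1.02) gave p-values, adjusted by Benjamini-Hochberg across the 14850 genes (threshold 0.05), with group as the only term. The SE is the absolute log2 fold change over the square root of F. An exact permutation test of 3 against 3 libraries cannot go below p = 0.1. Positions and exon lengths come from GENCODE M21 on GRCm38, which held 37693 of the gene identifiers. Promoters were matched by symbol in a RefSeq table for GRCm38.p6. The fit was tested on simulated data.

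The members, lists, markers and tests were chosen with earlier results of these data known. The genes named were the 10 members, up to 4 of each list with the smallest p, the tested genes of the locus and the 5 most like Odam. Others, among them Stat5a, Elf5, Prlr, Jak2, Socs2, Cish, Spp1, Xdh and those named for low counts, were chosen after their values were seen. Of the lists, Mucl2 was found under the older symbol Spt1, and Fdcsp was not analysed here. Replicates of a group differed by a chi-square per gene of 11.1 to 29.6. Alternatives were DESeq2 size factors, DESeq2 1.42.0, limma-voom 3.58.1, no filter, genes at 2 or more mean log2 CPM, a replicate block, an adjusted p of 0.01 and each library left out in turn.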

Additional observations from a re-analysis of the deposited data

How the results depend on the processing

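The members were picked on this contrast, so their values under other settings are a description and no sign of stability. With 1 library left out, log2 fold changes ranged from 4.99 to 5.51 for Odam, 2.39 to 2.79 for Ltf, 1.27 to 1.55 for Wfdc18 and -0.70 to -0.65 for Lcn2. That of Lalba was 0.58 ± 0.09 (SE) with a replicate block and 0.81 ± 0.22 (SE) without AXL KO 2. In both of these settings Lalba was called higher, which it was not in the main fit. Over the libraries left out it ranged from 0.37 to 0.84, and the log2 fold change of Csn1s1 ranged from -0.30 to 0.42. Libraries with the same replicate number had correlations of deviations of -0.0578, -0.125 and 0.0877. Those with different numbers lay between -0.21 and 0.223. With 3 libraries per group these values cannot exclude a pairing by number, and the main fit assumed none. The block also called Socs3 lower (1 lactogenic regulator) and left 2 genes of milk fat, lactose and ion secretion lower. At an adjusted p under 0.01, 3074 genes were called in all, 1610 higher and 1464 lower, against 5552, 2835 and 2717 at 0.05, and the lower genes numbered 1 in milk secretion and 0 at the locus. Without a filter 7 neighbours of the locus rose, with Csn1s2a, Smr2 and Smr3a added, and 2 milk secretion genes fell. Restricted to genes at 2 or more mean log2 CPM, 1 neighbour rose, and 4 other milk proteins and 2 milk secretion genes fell, since fewer genes were tested. Over the libraries left out, all lower genes ranged from 1733 (without AXL KO 3) to 2828, lower regulators from 0 to 1, lower milk secretion genes from 1 to 2 and lower neighbours from 0 to 3. Depth limits Csn1s1, Csn2, Csn1s2b, Wap and Glycam1. The cause of these shifts was not tested where none is given.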
